A study of Mus musculus with 2 samples.

Results

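Ribosome-bound RNA pulled down from the dentate gyrus was examined for 38 genes that build, brake and recycle branched actin filaments. They comprise the WASP-interacting proteins (Wipf1, Wipf2, Wipf3), the WASP genes (Was, Wasl), the WAVE complex (Wasf1, Wasf2, Wasf3, Cyfip1, Cyfip2, Nckap1, Abi1, Abi2, Brk1) and the Arp2/3 complex (Actr2, Actr3, Actr3b, Arpc1a, Arpc1b, Arpc2, Arpc3, Arpc4, Arpc5, Arpc5l). The others are the cofilins with destrin (Cfl1, Cfl2, Dstn), the profilins (Pfn1, Pfn2), the slingshot phosphatases (Ssh1, Ssh2), the LIM kinases (Limk1, Limk2), the cytoplasmic actins (Actb, Actg1) and capping protein (Capza1, Capza2, Capzb). The list was made by gene name with earlier results of these data known, and all 38 have a line among the 32531 gene symbols counted.

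The study holds 1 group of 2 libraries from untreated adult Lypd1-EGFP/Rpl10a mice of line OI82. In this line a ribosomal protein tagged with EGFP is made under the regulatory sequence of Lypd1, and tagged polysomes of the dissected dentate gyrus were pulled down with antibodies to EGFP. Both libraries are pull-downs, and input RNA was not analysed here, so every value is a level within the purified RNA. Whether replicates 1 and 2 come from separate animals is not stated, so their spread may be technical. Replicate 1 held 31309643 counts on gene lines and replicate 2 held 32711412. All 10 granule cell markers checked were detected, with a median of 209 CPM, or counts per 1000000 counts on gene lines. With 1 group there is no second condition to test against, and no p-value is given. The errors below are the SD over the 2 libraries.

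Actin filaments grow from monomers that profilin delivers to the barbed end, and capping protein stops that growth. The Arp2/3 complex starts a new filament as a branch on the side of an existing one when a WASP or WAVE protein activates it. Cofilin and destrin take old filaments apart. LIM kinases switch cofilin off by phosphorylation, and slingshot phosphatases switch it back on. Branched actin fills the dendritic spines of excitatory neurons, where its turnover accompanies changes in spine size.

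Of the 38 genes, 37 were detected, which required 1 CPM or more in each library. Over all gene lines 38.1% were detected. The genes together took 1.85% of gene counts in replicate 1 and 1.89% in replicate 2. Their median level was 66.2 CPM per kb of exon, against 5.19 CPM per kb over all detected genes with a known length. Ratios between genes are per kb, where the length is the union of a gene's exons in GENCODE M21 (GRCm38). The range was wide, since 5 of the detected genes had a mean CPM under 10 while Actb, the highest per kb, ranked 7 among 16246 genes with a count and a known length.

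**Figure D1:**
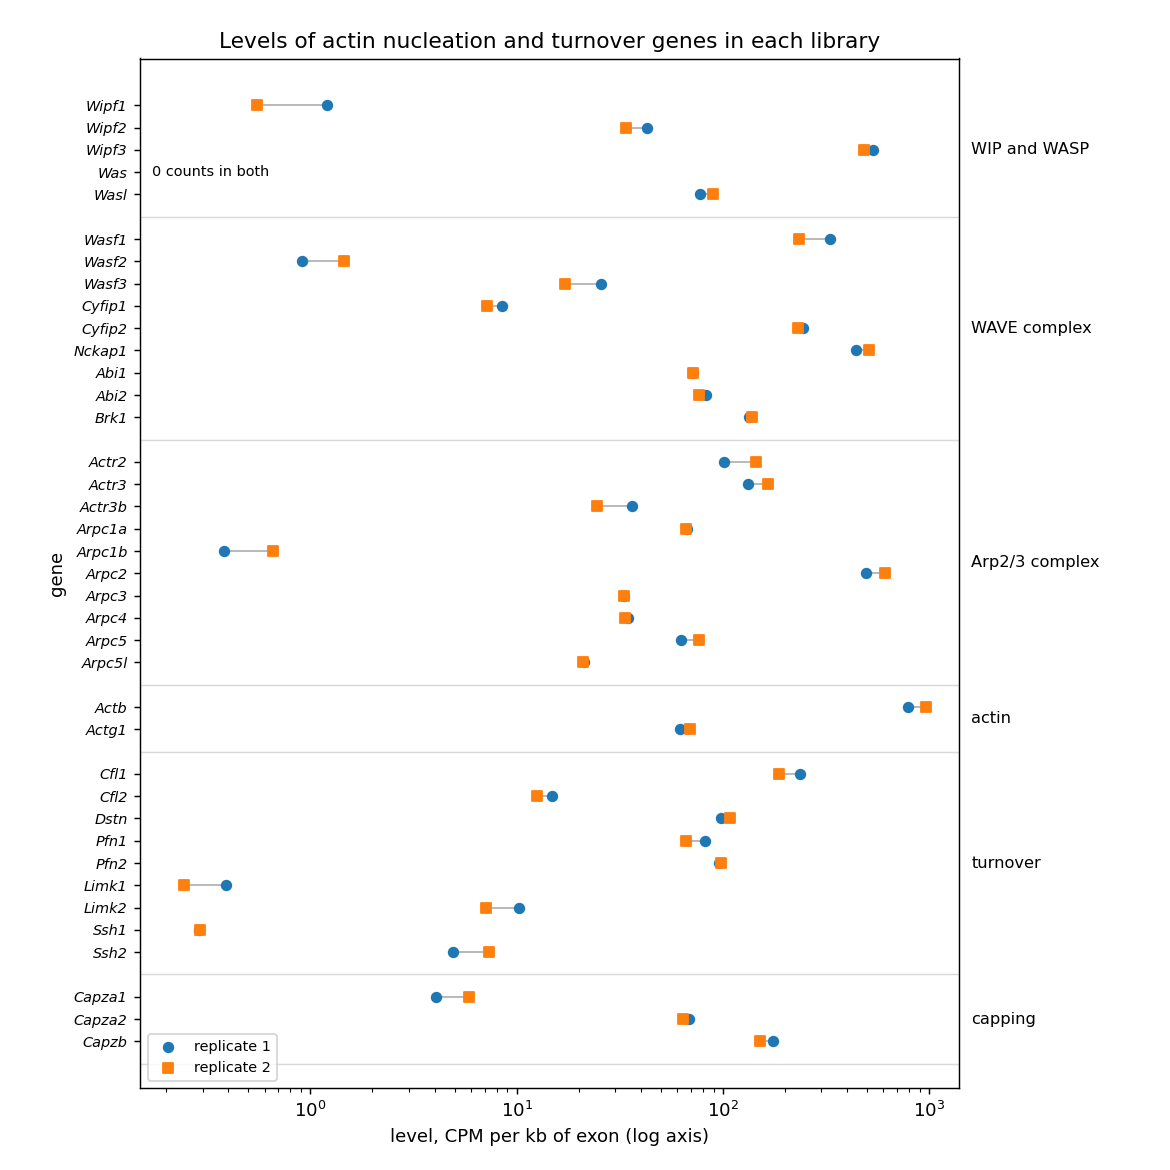
Level of each gene in CPM per kb of exon on a log axis, with replicate 1 as circles and replicate 2 as squares, grouped by role. Actb lies highest and Was, with 0 counts, has no point. The 2 points of a gene nearly coincide for Arpc3 and Abi1 and lie farthest apart for Wipf1.

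Actb, which encodes beta-actin (chromosome 5, 142903115 to 142906754, minus strand), stood at 787 CPM per kb in replicate 1 and 964 in replicate 2. Actg1, which encodes gamma-actin (chromosome 11, 120345690 to 120348542, minus strand), stood at 61.8 and 69.5 CPM per kb. Actb was thus 12.7 times Actg1 in replicate 1 and 13.9 times in replicate 2, a log2 ratio of 3.73 ± 0.09 (SD, n = 2). Of the stretches of 50 bases in the longest coding transcript, 56.7% of Actg1 and 14.2% of Actb recur in a transcript of another gene. For Actg1 these were transcripts of 22 other genes. When the exon length was reduced by these shares, an alternative chosen after seeing the data, Actb was 6.43 and 7.0 times Actg1. The Actg1 level is therefore uncertain.

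The coding sequences, taken from GENCODE M21 (GRCm38), show how alike the pair is. Over 1128 bases they were identical at 88.7% of positions, and the longest identical run was 62 bases. No other pair compared had an identical run of 50 bases or more, and the next longest was 26 bases, between Capza1 and Capza2. The first 90 coding bases are shown from the start codon, with the 16 differing bases in capitals.
Actb: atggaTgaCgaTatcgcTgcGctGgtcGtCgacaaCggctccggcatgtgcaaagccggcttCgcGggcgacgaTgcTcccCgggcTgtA
Actg1: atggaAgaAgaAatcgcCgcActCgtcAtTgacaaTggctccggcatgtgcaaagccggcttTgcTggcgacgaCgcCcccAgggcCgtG
Most capitals fall on the last base of a codon. Coding bases 875 to 964 hold the longest identical run, with 7 differing bases in capitals.
Actb: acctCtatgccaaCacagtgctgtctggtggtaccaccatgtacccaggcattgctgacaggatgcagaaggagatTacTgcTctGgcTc
Actg1: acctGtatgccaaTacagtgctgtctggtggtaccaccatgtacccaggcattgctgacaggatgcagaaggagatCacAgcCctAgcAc
A read that lies within the lower-case run cannot be assigned to either gene.

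Cofilin 1 carried most of the filament-severing messages. Cfl1 (chromosome 19, 5490455 to 5495201, plus strand) was at 236 CPM per kb in replicate 1 and 187 in replicate 2. Dstn, which encodes destrin, was at 98.1 and 108 CPM per kb. Cfl2, the form known best from muscle, was at 14.9 and 12.5 CPM per kb. The order was the same in both libraries, with Cfl1 15.9 and 14.9 times Cfl2, and 10.1 and 9.50 times per coding length. The coding length used for Cfl1, 681 bases, is that of its longest annotated form and not of the form aligned below. Without length correction Cfl1 was 13.8 and 13.0 times Cfl2. Cfl1 exceeded Dstn 2.40-fold in replicate 1 and 1.72-fold in replicate 2. The shares of Cfl1 in the group were 67.6% and 60.7%, so its lead over Dstn moved more between the libraries than its lead over Cfl2. Of Cfl1's stretches 20.5% recur in other genes, including the antisense neighbour Snx32 (25.3 and 19.6 CPM), so its level is a low estimate if such reads were set aside. The coding sequences of Cfl1 and Cfl2 were identical at 71.5% of 501 bases, with no identical run longer than 11 bases. Their first 90 coding bases differ at 27 positions, in capitals, and contrast with the actin pair.
Cfl1: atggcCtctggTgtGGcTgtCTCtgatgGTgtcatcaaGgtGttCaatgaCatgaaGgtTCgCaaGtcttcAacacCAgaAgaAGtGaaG
Cfl2: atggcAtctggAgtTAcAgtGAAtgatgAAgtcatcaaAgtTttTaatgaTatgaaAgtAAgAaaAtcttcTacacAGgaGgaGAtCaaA

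Among the kinases and phosphatases that act on cofilin, 1 gene of each pair was near the detection threshold. Limk2 was at 62.6 CPM in replicate 1 and 43.1 in replicate 2, while Limk1 was at 2.81 and 1.74 CPM, from 88 and 57 counts. Per kb, Limk2 was 26.2 and 29.1 times Limk1. Ssh2 was at 90.6 and 136 CPM, and Ssh1 at 2.56 and 2.60 CPM, from 80 and 85 counts. Per kb, Ssh2 was 17.0 and 25.1 times Ssh1, and 25.8 and 38.2 times per coding length. None of these 4 genes shared a stretch of 50 bases with another gene. The summed level per kb of both pairs was far below that of their substrate Cfl1.

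The profilins were close to each other. Pfn2, the form prominent in neurons, was at 95.4 CPM per kb in replicate 1 and 98.2 in replicate 2, and the widely expressed Pfn1 at 81.5 and 66.4. The log2 ratio of Pfn2 over Pfn1 was 0.40 ± 0.24 (SD, n = 2). It was 0.95 per coding length, which is equal for both genes, while the exons of Pfn2 are longer.

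Of the WASP-interacting proteins, which hold WASP proteins in a stable complex, Wipf3 stood far above the rest. Wipf3, also named CR16 and described in rat brain (chromosome 6, 54429603 to 54503768, plus strand), had 3791 CPM in replicate 1 and 3426 in replicate 2. It ranked 26 per kb. Wipf2 had 333 and 265 CPM, and Wipf1 had 7.12 and 3.24 CPM. Per kb, Wipf3 was 12.5 and 14.2 times Wipf2, and Wipf2 was 35.3 and 61.7 times Wipf1. Wipf3 held 92.4% of the group's summed level per kb in replicate 1 and 93.3% in replicate 2. Wipf3 exons overlap 500 bases of exon on the opposite strand, of 9130019P16Rik (12.9 and 4.77 CPM) and Scrn1 (23.6 and 18.4 CPM). Both neighbours were counted at a small fraction of Wipf3, and 9.00% of Wipf3's stretches were shared.

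Wasl, which encodes N-WASP, was at 479 CPM in replicate 1 and 554 in replicate 2. Was, the blood-cell member of the pair, had 0 counts in both libraries, which allows up to 0.0958 CPM in replicate 1 and 0.0917 in replicate 2. These limits are 3 counts of each total and cover counting error only. Among markers of microglia and other leukocytes, C1qa, C1qb and Fcer1g also had 0 counts in both libraries. The part of such cells in the low levels of Wipf1 and Arpc1b was not tested.

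Each subunit of the WAVE complex, which links the GTPase Rac to Arp2/3, was carried mainly by 1 gene, except Abi. Wasf1, which encodes the brain-enriched WAVE1, was at 329 CPM per kb in replicate 1 and 234 in replicate 2. Wasf3 was at 25.5 and 17.1 CPM per kb and Wasf2 at 0.908 and 1.45, from 178 and 297 counts. Wasf1 was 12.9 and 13.7 times Wasf3, although both were higher in replicate 1, with log2 ratios of replicate 1 over replicate 2 of 0.40 for Wasf1 and 0.49 for Wasf3. Per coding length Wasf1 was 6.35 and 6.75 times Wasf3. Cyfip2 was at 245 and 232 CPM per kb, and Cyfip1, known for binding the fragile X protein, at 8.48 and 7.22. Cyfip2 was 28.9 and 32.2 times Cyfip1. The union of exons of Cyfip1 is long, and 1489 of its exon bases lie antisense to other genes. Per coding length the ratio was 17.2 and 19.1.

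Abi1 and Abi2 were nearly level per kb, with 71.3 and 71.4 CPM per kb for Abi1 and 82.4 and 76.4 for Abi2. The log2 ratio of Abi2 over Abi1 was 0.15 ± 0.08 (SD, n = 2), and 1.22 per coding length. The adaptor Nckap1 had no related gene in the list. It was at 441 CPM per kb in replicate 1 and 510 in replicate 2 and ranked 28 per kb. The smallest subunit, Brk1, was at 134 and 139 CPM per kb. With related genes summed, the 5 subunits spanned a 3.28-fold range in replicate 1 and a 3.66-fold range in replicate 2, from Brk1 to Nckap1. Per coding length they lay between 490 and 681 CPM per kb in replicate 1 and between 462 and 744 in replicate 2, a span of 1.39-fold and 1.61-fold. The 5 subunits were therefore near-equal on the coding scale and not per kb of exon. Coding length leaves out exon bases that can also yield reads, and for Brk1 it is 225 of 1095 exon bases. Near-equality thus depends on the measure of length and does not establish equal message levels.

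The Arp2/3 complex was less even. Arpc2 (chromosome 1, 74236084 to 74268209, plus strand), which forms the core of the complex together with Arpc4, was at 496 CPM per kb in replicate 1 and 610 in replicate 2. The actin-related subunits followed, with Actr3 at 132 and 166 CPM per kb and Actr2 at 101 and 145. Arpc5 was at 62.8 and 76.8 CPM per kb, Arpc1a at 66.6 and 66.4, Arpc4 at 34.5 and 33.6, and Arpc3 at 33.3 in both. Arpc4 overlaps 283 exon bases of Ttll3 on the same strand, and 10.5% of its stretches recur in another gene. Its level is a low estimate if such reads were set aside. The order below Arpc2 depends on the length used, but Arpc2 was highest per exon, per longest transcript and per coding length in both libraries. The 7 subunits, with related genes summed, spanned 14.9-fold in replicate 1 and 18.3-fold in replicate 2, and 7.19-fold and 8.90-fold per coding length. By the mean of the libraries the lowest subunit was Arpc3 per exon, Arpc4 per longest transcript and, per coding length, Arpc1, at 156 CPM per kb beside 157 for Arpc4.

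**Figure D2:**
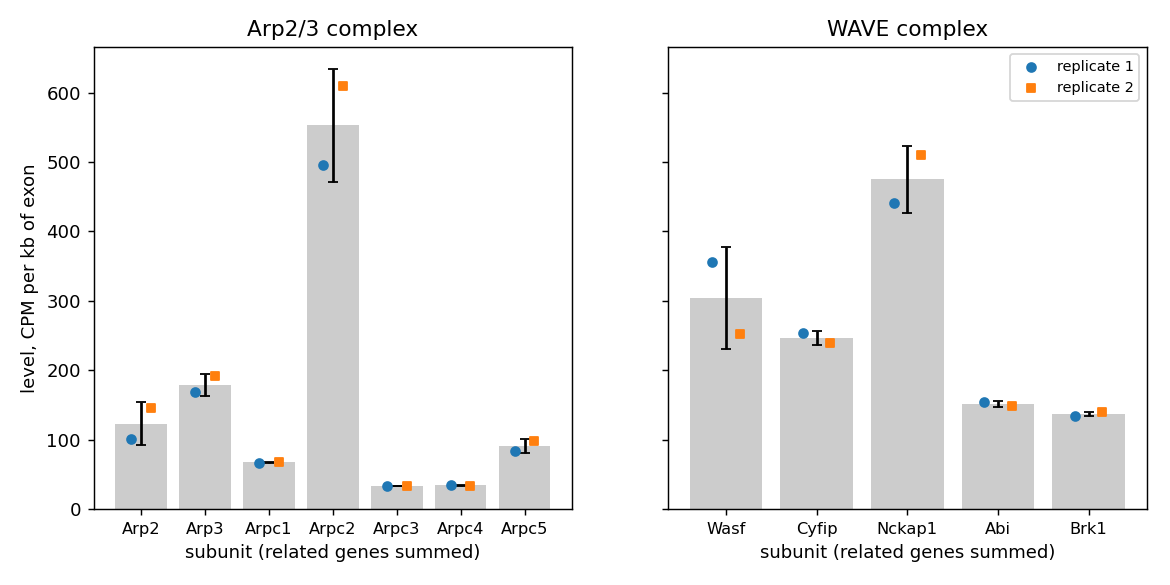
Level of each subunit of the Arp2/3 and WAVE complexes in CPM per kb of exon, with related genes summed. Bars are means of the 2 libraries, error bars the SD, circles replicate 1 and squares replicate 2. Arpc2 stands at 553 CPM per kb, and Nckap1 at 475 leads the WAVE complex.

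Related genes within the Arp2/3 complex were unequal. Arpc1a was 175 times Arpc1b per kb in replicate 1 and 101 times in replicate 2, with Arpc1b at 61 and 110 counts, and 89.1 and 51.5 times per coding length. Arpc1b, the form prominent in blood cells, lies antisense to Pdap1 over 931 exon bases and shares 23.9% of its stretches, so its counts are uncertain. Actr3 was 3.65 and 6.81 times Actr3b, and 6.98 and 13.0 times per coding length. The libraries differ here since Actr3 was higher in replicate 2 and Actr3b, at 36.1 and 24.4 CPM per kb, was higher in replicate 1. Of Actr3's stretches 49.8% recur in 2 other genes, so its share of 78.5% and 87.2% is a low estimate if those reads were set aside. Arpc5 was 2.96 and 3.67 times Arpc5l, and 1.52 and 1.88 times per coding length.

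Capping protein is a dimer of an alpha and a beta chain. Capzb, the only beta gene, was at 175 CPM per kb in replicate 1 and 152 in replicate 2. Capza2 was at 68.2 and 63.7 CPM per kb and Capza1 at 4.05 and 5.89. Of Capza1's stretches 77.4% recur in 4 other genes, the highest share of the 38. With the shared part taken out of the length, Capza2 was 3.79 and 2.44 times Capza1, against 16.8 and 10.8 times without that step and 26.2 and 16.9 times per coding length. The level of Capza1 cannot be fixed from these counts.

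Across the 14 groups of 2 or 3 related genes, 1 gene held over 90% of the summed level per kb in both libraries in 9. These were Wipf3, Wasl, Wasf1, Arpc1a, Cyfip2, Ssh2, Limk2, Actb and Capza2. The number was 9 per longest transcript, 8 per coding length, where Wasf1 held 85.9% in both libraries, and 7 once shared stretches were taken out, where Actb and Capza2 dropped below. The other 5 groups were Actr3 with Actr3b, Arpc5 with Arpc5l, Abi1 with Abi2, the cofilins with destrin, and the profilins.

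**Figure D3:**
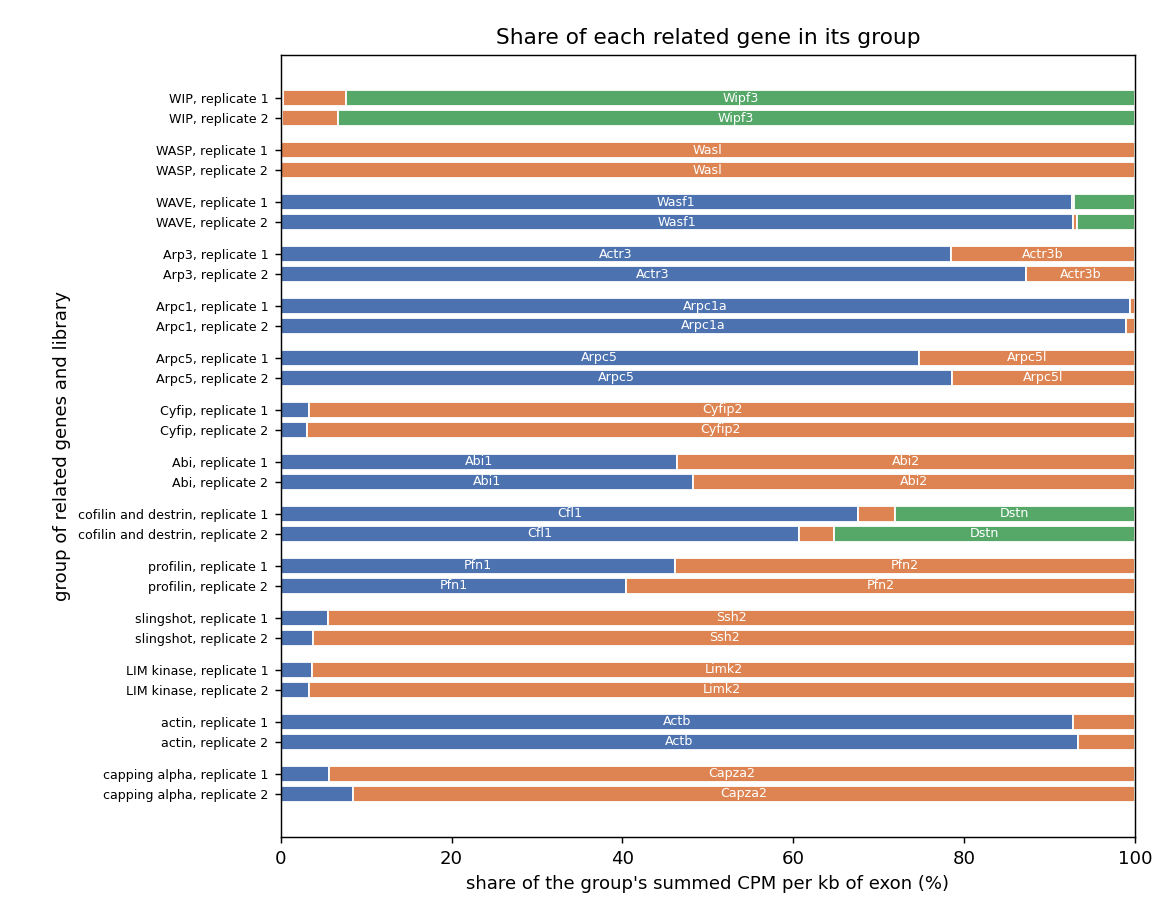
Share of each gene in the summed CPM per kb of exon of its group, with 1 bar for each library and the colours marking the genes of the group in the order of their names. Wipf3, Wasl, Wasf1, Arpc1a, Cyfip2, Ssh2, Limk2, Actb and Capza2 each fill over 90% of both bars, while Abi1 with Abi2 and Pfn1 with Pfn2 are near-equal.

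**Figure D4:**
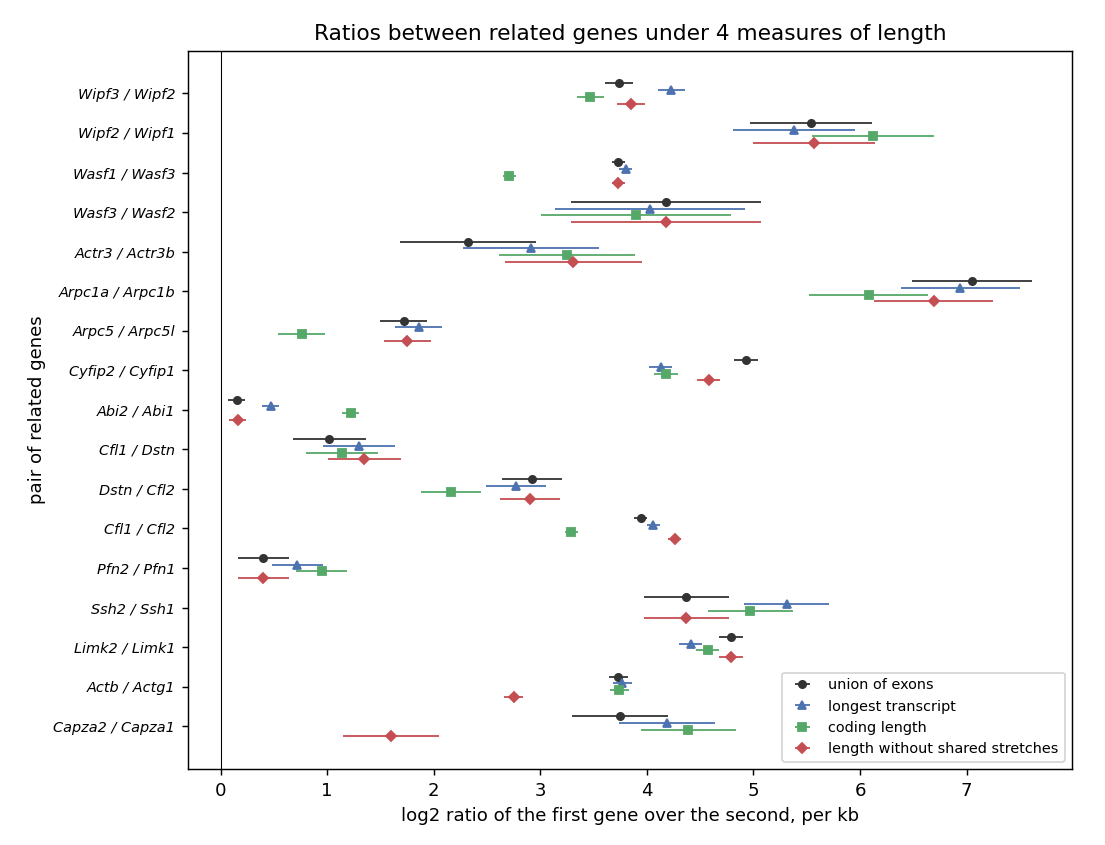
Log2 ratio of the first over the second gene of each pair per kb, as mean and SD of the 2 libraries, under 4 measures of length. Every point lies above 0. The ratio of Actb over Actg1 falls to 2.75 and that of Capza2 over Capza1 to 1.60 when shared stretches are removed from the length.

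The 2 libraries gave similar values for most of the genes. Log2 ratios of replicate 1 over replicate 2 were taken with TMM scaling, which sets library totals so that most genes do not differ. Where the mean over the libraries was 1 CPM or more, which held for 37 of the genes, 6 were at least 1.5-fold apart. Among all 13089 genes so filtered 26.9% were that far apart, a larger share, and this difference in shares was not tested. The median absolute log2 ratio was 0.25 over the genes of the list and 0.33 over all genes. Above a mean of 10 CPM, 3 of 32 were 1.5-fold apart, beside 16.6% of all genes. Counting error alone is smaller than these differences, since the 95% counting interval excluded 0 for 31 of 37. edgeR's biological coefficient of variation over the 13089 genes was 29.4%.

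Wipf1 was the only one at least 1.5-fold higher in replicate 1, where 14.3% of all genes were, with a log2 ratio of 1.03 (95% counting interval 0.70 to 1.39). The 5 genes at least 1.5-fold higher in replicate 2, where 12.6% of all genes were, were Arpc1b at -0.86 (-1.36 to -0.42), Wasf2 at -0.76 (-1.04 to -0.49), Ssh2 at -0.68 (-0.75 to -0.61), Capza1 at -0.63 (-0.80 to -0.46) and Actr2 at -0.60 (-0.63 to -0.58). Arpc1b was at 1.95 CPM in replicate 1 and 3.36 in replicate 2, and of the 6 genes Wipf1, Wasf2 and Arpc1b had a mean under 10 CPM. Actr2 lay just past the threshold and Limk1, at 0.58 (0.10 to 1.10), just within it. With library totals alone, Actr2 and Capza1 were no longer past 1.5-fold and Limk1 was, higher in replicate 1.

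Of the 10 genes of the Arp2/3 complex 9 had a log2 ratio below 0, with a median of -0.24, and Actr3b alone was above 0, at 0.47. Over all genes 6437 of 13089 were below 0 and the median was 0.01. With library totals alone, a scaling that moved the median of all genes to 0.10, 5 of the 10 were below 0 and their median was -0.14, beside 5437 of the 13089. Both actins lay below 0 under all 3 scalings, with -0.38 for Actb and -0.26 for Actg1. The WAVE complex was split, with 4 of 9 above 0 and a median of -0.01. Marker lists of other cells differed between the libraries in both directions, and each list held 1 or more markers that went against its sum. The summed level of 9 astrocyte markers was 95.9 CPM in replicate 1 and 130 in replicate 2, and that of 6 oligodendrocyte precursor markers 33.3 and 51.2. The astrocyte marker Sox9 alone was at 10.4 and 27.8 CPM. The astrocyte markers Aqp4, S100b, Gja1 and Aldh1l1 and the precursor marker Olig1 were higher in replicate 1. GABAergic interneuron markers summed to 76.6 CPM in replicate 1 and 125 in replicate 2, most of it Gad1 (50 and 75.6) and Gad2 (19.7 and 42.8), while Lhx6, Slc32a1 and Sst were higher in replicate 1. Mossy cell markers summed to 58.9 and 35.7, most of it Ajap1 (50.8 and 32.0). Pyramidal cell markers of CA1 and CA3 summed to 133 and 99.9 CPM, oligodendrocyte markers to 196 and 162, endothelial markers to 27.1 and 23.1, and pericyte and smooth muscle markers to 16.1 and 20.1. In the order given, 8 of 9, 6 of 6, 3 of 8, 3 of 5, 6 of 7, 7 of 8, 6 of 8 and 2 of 8 genes were detected, and none was at 0 in both libraries. In pull-down RNA, the number of cells of a type, the RNA per cell and the purity of the pull-down cannot be told apart. The part of these cells in the differences was not tested.

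**Figure D5:**
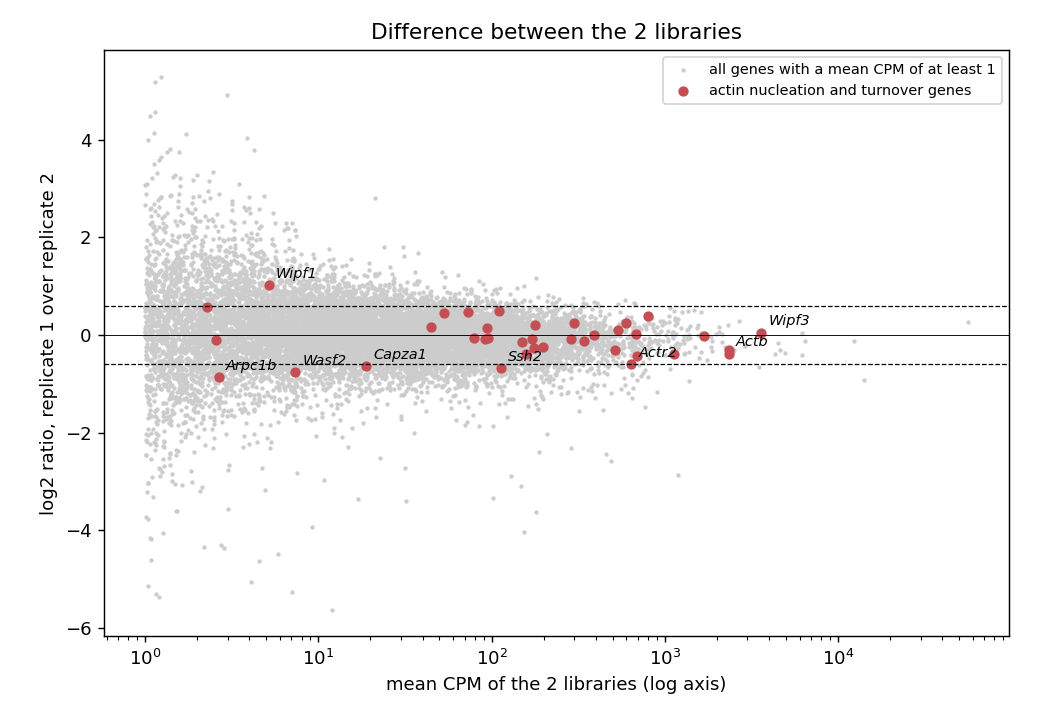
Log2 ratio of replicate 1 over replicate 2 against the mean CPM on a log axis, with all 13089 genes in grey and the actin genes in red. Dashed lines mark 1.5-fold. Wipf1 lies above the upper line at 1.03 and Arpc1b, Wasf2, Capza1, Ssh2 and Actr2 below the lower one.

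Other actin genes were counted in 5 further lists. Of 18 formins and tandem-WH2 nucleators found, which build unbranched filaments, 12 were detected. The highest per kb were Fmnl1 (25.2 CPM per kb in replicate 1 and 48.5 in replicate 2), Fmnl2 (39.5 and 31.8) and Spire1 (20.8 and 21.8). All were far below Arpc2, the highest Arp2/3 subunit. Fmnl1 and Fmnl2 were nevertheless near the Arp2/3 subunits Arpc3 (33.3 in both libraries) and Arpc4 (34.5 and 33.6). Of 22 severing, capping and monomer-binding genes found 14 were detected. They were led by Tmsb4x, whose product thymosin beta 4 stores actin monomers, at 991 and 738 CPM per kb, Cap2 at 211 in both libraries and Cap1 at 90.4 and 103. Of 13 branch-stabilising and side-binding genes found 11 were detected, led by the coronin Coro2b (65.7 and 44.2 CPM per kb), Hax1 (16.2 and 28.4) and cortactin, Cttn (20.0 and 18.1).

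Of 20 bundling and crosslinking genes 17 were detected, led by Marcksl1 (104 CPM per kb in replicate 1 and 89.3 in replicate 2), the adducin Add2 (68.0 and 68.8) and the spectrin Sptan1 (29.4 and 62.5). Of 7 other actins and actin-like genes 3 were detected, led by the chromatin subunits Actl6b (11 and 8.12 CPM per kb) and Actl6a (4.94 and 4.0) and the skeletal muscle actin Acta1 (3.53 and 1.51). Smooth muscle actin, Acta2, had 63 counts in replicate 1 and 2 in replicate 2.

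In these lists 60 genes averaged 1 CPM or more, and 8 of them were at least 2-fold apart between the libraries. The 5 higher in replicate 1 were 8.33% of the 60, beside 5.75% of all genes, and the 3 higher in replicate 2 were 5.0%, beside 4.51%. Higher in replicate 1 were Lmod1 (log2 ratio 1.5), Spire2 (1.46), Acta1 (1.11), Coro2a (1.10) and Acta2 (4.0, on 65 counts in all). Higher in replicate 2 were Svil (-1.61), Sptan1 (-1.18) and Fmnl1 (-1.03). Of the 8, Sptan1 had the highest counts, at 393 and 835 CPM.

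Promoter windows of 300 bases, from 250 before to 50 after the start of a transcript, were found in RefSeq (GRCm38.p6) for 32 of the 38 genes, 39 windows in all. They held a median of 27.0 CpG pairs, against 21 in the 11756 windows of detected genes and 7 in all 32851 windows. The letters GGGCGG, on either strand, were in 71.8% of them, in 62.6% of windows of detected genes and in 35.7% of all. The letters TATAAA, on either strand, were in 0 of the 39 windows, beside 6.74% of windows of detected genes. A CArG box, the site that serum response factor binds, was in 2 of the 39 windows, those of Actg1 and Arpc4, beside 1.22% of windows of detected genes. The 6 genes without a window, Actr3b, Arpc5l, Cyfip1, Nckap1, Abi2 and Actb, were not searched for any of these letters. A match of letters is a description and not a bound site.

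The 250 bases before the start are shown for 3 genes of different levels, with CArG boxes and GGGCGG on either strand in capitals. Actg1 (chr11:120348496-120348745, minus strand) holds a CArG box and a run of GGGCGG matches. Wipf3 (chr6:54429436-54429685, plus strand), the highest of its group, holds GGGCGG alone, 4 times. Was (chrX:8090492-8090741, minus strand), with 0 counts, holds neither and 4 CpG pairs, against 28 in the Wipf3 stretch and 43 in that of Actg1. These 3 genes do not show a relation of CpG pairs to level. The same stretch of Wasf3, at 133 and 88.7 CPM, held 5 CpG pairs, and that of Ssh1, at 2.56 and 2.60 CPM, held 31.
Actg1: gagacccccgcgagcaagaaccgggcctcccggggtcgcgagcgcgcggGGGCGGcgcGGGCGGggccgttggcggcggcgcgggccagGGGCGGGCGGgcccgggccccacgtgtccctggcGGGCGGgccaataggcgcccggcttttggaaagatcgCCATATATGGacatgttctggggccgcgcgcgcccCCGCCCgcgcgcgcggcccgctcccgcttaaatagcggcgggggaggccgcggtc
Wipf3: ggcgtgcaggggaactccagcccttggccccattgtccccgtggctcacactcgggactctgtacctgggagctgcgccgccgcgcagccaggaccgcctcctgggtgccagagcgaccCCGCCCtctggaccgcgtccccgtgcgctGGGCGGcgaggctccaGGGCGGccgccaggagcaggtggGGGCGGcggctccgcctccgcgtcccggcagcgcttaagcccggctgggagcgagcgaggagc
Was: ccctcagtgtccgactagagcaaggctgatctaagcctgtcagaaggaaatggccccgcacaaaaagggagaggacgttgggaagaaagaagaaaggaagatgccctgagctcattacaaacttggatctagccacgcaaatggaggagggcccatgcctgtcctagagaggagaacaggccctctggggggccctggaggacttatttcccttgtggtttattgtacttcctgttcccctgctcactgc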

How the data were processed

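Ribosome-bound RNA of 2 dentate gyrus pull-down libraries was measured by RNA sequencing. The authors deposited raw counts for each gene symbol. STAR 2.0.0e, HTSeq and build mm10 are named per the submitters' processing notes. Which annotation, read length and strand setting were used is not given in the sources used here, so reads from antisense partners cannot be separated. Lines that name no gene were left out of the totals. On all lines, 65.0% and 64.9% of counts were on genes.

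CPM is the count per 1000000 counts on gene lines. Exon lengths came from GENCODE M21, where 71.2% of symbols and all 38 genes of the list matched. Shared stretches are 50-base stretches of a gene's longest coding transcript, found in transcripts of other genes on either strand. Coding sequences of principal transcripts were aligned with Biopython 1.88. Log2 ratios used TMM factors from edgeR 4.0.16 and a prior count of 2, with exact Clopper-Pearson 95% intervals, which cover counting error only. edgeR's variation came from an intercept-only fit. PCR copies cannot be recognised in such counts. The ratio step was tested on simulated data. DESeq2 1.42.0 gave an alternative scaling.

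The genes and lists were chosen with earlier results of these data known. Values in both libraries were given by a fixed rule for the highest gene of each role group, every gene of a group of 2 or 3 related genes, genes under a CPM of 1, and genes past 1.5-fold between the libraries. From the other lists the rule named the 3 highest per kb and those past 2-fold. A further list and a count of leukocyte markers are not reported here.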

Additional observations from a re-analysis of the deposited data

Results flagged for a closer look

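Reads that fell on no single gene were used in none of the comparisons and were far above the limit that a count of 0 allows. Those outside every annotated feature were 16.7% of all counts in replicate 1 and 17.0% in replicate 2. Reads aligned more than once made up 15.7% and 15.5%, and reads that overlapped several genes 2.61% and 2.56%. How many of these reads came from the 38 genes was not measured.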

How the results depend on the processing

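No paired analysis was possible because there is 1 group, and its 2 replicates have no partners. The number of genes detected was 37 in the values as reported, 37 when either replicate was left out, and 33 at a CPM of at least 5. Leaving out a replicate could not change the number, since Was had 0 counts in both. Genes at least 1.5-fold higher in replicate 1 numbered 1 as reported, 2 with library totals alone, 2 with a prior count of 0.5 and 0 at a mean CPM of at least 10. Those higher in replicate 2 numbered 5 as reported, 3 with library totals alone, 3 at a mean CPM of at least 10 and 0 at 2-fold. The median log2 ratio was -0.09 as reported and 0.00 with library totals alone, a scaling that shifts every ratio by about the same amount. Of the values of single genes and pairs under another setting, 282 stayed within the SD between the libraries and 130 moved beyond it. Leaving out 1 of 2 libraries can never move a mean beyond that SD. Those settings are all among the 282 by construction and say nothing about stability. No called difference changed sign. The length without shared stretches was chosen after seeing the data. Depth limits Was, Ssh1, Limk1 and Arpc1b, and stretches shared with other genes limit Capza1, Actg1 and Actr3.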

Other observations

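Arpc1a and Arpc1b are neighbours on the plus strand of chromosome 5, at 145083830 to 145108761 and 145114215 to 145130705 (GRCm38), with 5453 bases and no other annotated gene between them. Their levels were 66.6 and 66.4 CPM per kb for Arpc1a in replicates 1 and 2, and 0.381 and 0.657 for Arpc1b. Their promoter windows held 26 CpG pairs for Arpc1a and 29 for Arpc1b, with a GC content of 63.0% and 69.3%. In the 250 bases before the start, the letters GGGCGG, on either strand, were found 0 times for Arpc1a and 7 times for Arpc1b.

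Some relatives best known from blood cells were chosen after their values were seen. Nckap1l, the relative of Nckap1, was at 0.221 CPM per kb in replicate 1 and 0.206 in replicate 2, beside 441 and 510 for Nckap1. Hcls1, a relative of cortactin, had 2 and 4 counts, and Abi3, a relative of Abi1 and Abi2, 2 and 1. The coronin Coro1a was not low beside its relatives, at 14.5 and 13.1 CPM per kb, against 12.7 and 10.8 for Coro1b and 13.6 and 10.5 for Coro1c.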
